A study of Homo sapiens with 8 samples.

Results

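Enzymes that attach ubiquitin to proteins or take it off again were followed through a ribosome profiling comparison of WM902B melanoma cells. The members were the rows of the authors' deposited table whose symbol begins with RNF, TRIM, UBE2, UBE3, UBE4, FBX, CUL and a digit, HERC, USP and a digit, UCHL, OTU or UBR. This rule uses names alone and took in 97 of 4616 genes. They were 18 UBE2 conjugating enzymes, 15 RNF and 11 TRIM proteins, 7 cullins, 10 F-box proteins, 2 UBE3, 2 UBE4, 2 HERC and 6 UBR ligases, 20 USP, 1 UCHL and 3 OTU deubiquitinases.

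WM902B is an established human cell line from a primary melanoma and carries BRAFV600E. All cells were at passage 18 and received 100 µg/ml cycloheximide, which stalls elongating ribosomes, for 5 min. They expressed a scrambled hairpin (shSCR) or a hairpin against the long non-coding RNA TINCR (shTINCR), with 2 biological replicates per condition of ribosome footprints and 2 of RNA, 8 libraries in all. The labels name 1 hairpin per condition. They title the RNA libraries as total RNA and list their molecule as polyA RNA. Of 10 melanocyte lineage markers 9 had a row in the table, against 0 of 5 keratinocyte, 1 of 5 fibroblast (COL1A2) and 0 of 4 leukocyte markers. TINCR had 0 rows, so its silencing was not checked. The table gives 1 value per gene and condition, pooled over replicates. The value in each library, the depth and the spread between replicates are therefore unknown, and changes of footprints and of mRNA cannot be told apart.

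Ubiquitin is activated by an E1 enzyme, passed to an E2 conjugating enzyme and joined to a target by an E3 ligase, which chooses the target. RING ligases such as most RNF and TRIM proteins hold the E2 beside the target. Cullins are scaffolds that carry a RING subunit at one end and a substrate receptor, often an F-box protein, at the other. HECT ligases (the UBE3 and HERC families) take the ubiquitin onto themselves first. Deubiquitinases cut it off again, and ubiquitin chains of some shapes send a protein to the proteasome.

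Translational efficiency (TE) is the footprint signal of a gene over its mRNA signal, given on the log2 scale. A gene was called when the authors' adjusted p was below 0.05. Of the 97 members 6 rose and 2 fell, so 8 were called (8.25%). Over all 4616 genes the share called was 16.4%, with 8.23% that rose and 8.17% that fell. TE of OTUB1, RNF126, RNF130, RNF187, RNF40 and UBE2S rose by 1.22-fold to 1.51-fold, and TE of USP16 and USP14 fell to 0.631-fold and 0.734-fold. The median log2 change was 0.01 over the members, a sign that 3 alternative settings turned, and 0.02 over all genes, and 49 members lay above 0 and 48 below. A change of at least 0.3 in size was reached by 16 of the 97 members and by 1017 of all 4616 genes. An unadjusted p below 0.05 was found for 20 members (20.6%) and for 29.5% of all genes.

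**Figure D1:**
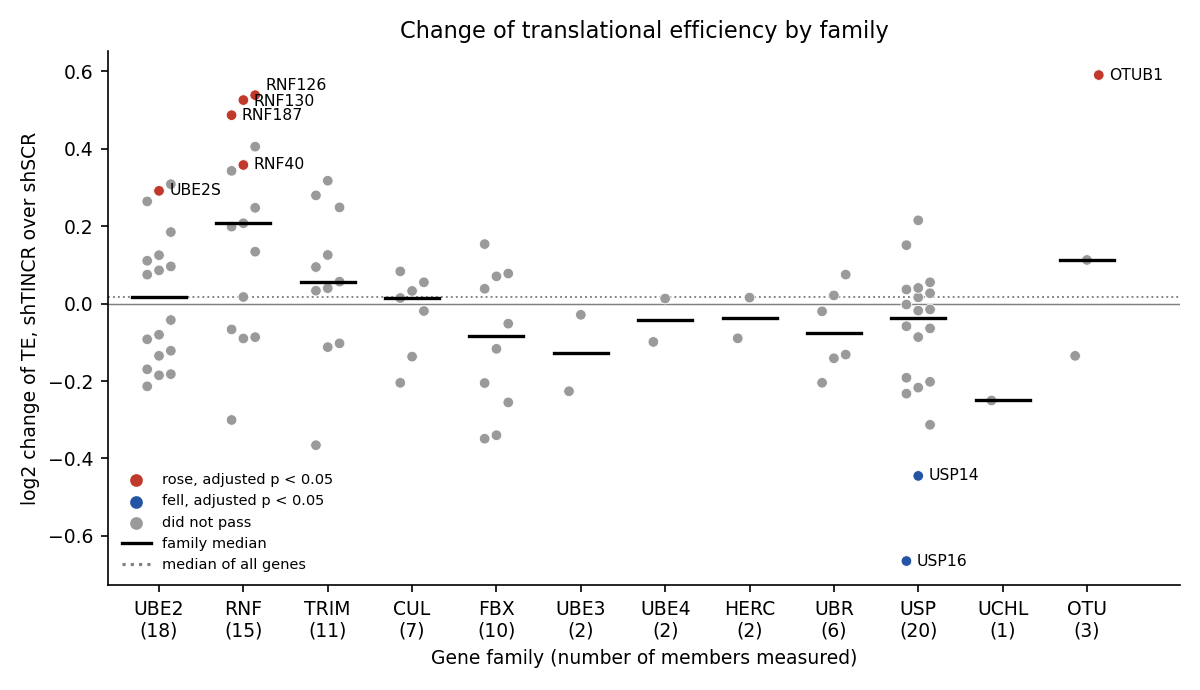
Log2 change of TE (shTINCR over shSCR) of each of the 97 members, by family, with the number measured under each family name. Points are genes, coloured where the authors' adjusted p was below 0.05. Black bars are family medians and the dotted line is the median of all genes (0.02). The 4 called RNF genes lie at 0.36 to 0.54, and the RNF median is 0.21.

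The conjugating enzymes showed a single call among 18 members (5.56%, against 16.4% of all genes). UBE2S, which lengthens ubiquitin chains on targets of the anaphase-promoting complex, had a log2 TE of -0.58 under shSCR and -0.29 under shTINCR in the authors' deposited table (change 0.29, adjusted p = 0.024). Its partner UBE2C, which starts those chains, had a change of -0.17 in the authors' deposited table (adjusted p = 0.273). FBXO5, also called EMI1, inhibits the same complex, and its change was -0.35 in the authors' deposited table (adjusted p = 0.116). The called value of UBE2S therefore stood beside values of opposite sign, neither of which passed, for an enzyme and an inhibitor that act on the same complex. UBE2S has 2 named pseudogenes and a small nucleolar RNA gene, SNORD157, within it, and UBE2C has 5 named pseudogenes. The part of shared or nested reads in the values of UBE2S and UBE2C was not tested.

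UBE2G2, which serves degradation of proteins from the endoplasmic reticulum, lay just outside the threshold at 0.31 in the authors' deposited table (adjusted p = 0.0624). UBE2J1 and UBE2J2, E2 enzymes anchored in the membrane of that compartment, had -0.12 and 0.09 in the authors' deposited table. The remaining UBE2 genes ranged from -0.21 (UBE2H) to 0.26 (UBE2Q1) in the authors' deposited table, with 9 of the 18 above 0 and a family median of 0.02. The NEDD8 conjugating enzyme UBE2M had 0.10 in the authors' deposited table. UBE2N and its inactive partner UBE2V2, which together build chains used in signalling, stood at 0.11 and -0.08 in the authors' deposited table.

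RNF genes held 4 of the 6 members that rose, which is 26.7% of the 15 RNF genes, against 8.23% of all genes. RNF126, a ligase of cytosolic quality control that works with BAG6, went from a log2 TE of 0.03 to 0.57 in the authors' deposited table (change 0.54, adjusted p = 0.0287). For RNF130, a membrane-spanning ligase related to fly Goliath, the authors' deposited table gave -0.11 and 0.41 (change 0.53, adjusted p = 0.00602). These genes started close to the typical TE of the table and ended above it. RNF126 has 1 named pseudogene, with which reads could be shared. BAG6 itself had a change of 0.03 in the authors' deposited table (adjusted p = 0.878).

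RNF187, known as a coactivator of the transcription factor JUN, went from -0.60 to -0.11 in the authors' deposited table (change 0.49, adjusted p = 0.00211). RNF40 went from -0.51 to -0.15 in the authors' deposited table (change 0.36, adjusted p = 0.0293). RNF40 and RNF20 form the ligase that places single ubiquitins on histone H2B. RNF20 had a higher log2 TE of 0.45 in shSCR cells and a change of -0.07 in the authors' deposited table (adjusted p = 0.73), so the subunits were 0.95 apart in log2 TE in shSCR and 0.53 apart in shTINCR cells. Whether their changes differ was not tested. UBE2B, an E2 of this reaction, had -0.04, and USP22, which removes the mark within the SAGA complex, 0.22 in the authors' deposited table (adjusted p = 0.889 and 0.109).

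A further 3 RNF genes had an adjusted p between 0.05 and 0.1. The authors' deposited table gave 0.41 for RNF7 (adjusted p = 0.0956), the RING subunit that pairs with CUL5, 0.34 for RNF181 (adjusted p = 0.0574) and 0.25 for RNF114 (adjusted p = 0.067). CUL5 itself had a change of -0.02, from a log2 TE of -2.28, in the authors' deposited table. Of the 15 RNF genes 11 lay above 0 (73.3%, against 52.5% of all genes). The 7 with an unadjusted p below 0.05 (46.7%, against 29.5% of all genes) were all above 0. The lowest value in the family was -0.30, for RNF111, a ligase of SUMO-bearing proteins that acts in TGF-β signalling, in the authors' deposited table (adjusted p = 0.213). RNF145, a sterol-linked ligase of the endoplasmic reticulum, had the family's lowest log2 TE in shSCR cells, -1.95, and a change of 0.21 in the authors' deposited table (adjusted p = 0.258).

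**Figure D2:**
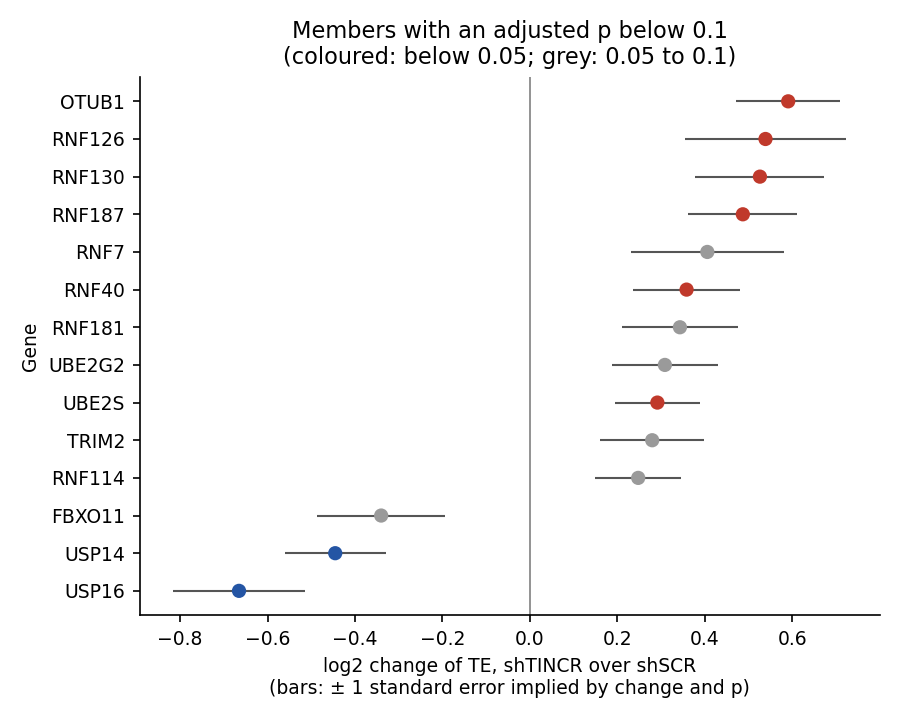
Log2 change of TE of the 14 members with an adjusted p below 0.1 in the authors' deposited table. Points in red or blue passed 0.05 and grey points did not. Bars are 1 standard error to each side, implied by the change and its p-value taken as that of a normal statistic, from 0.10 for UBE2S to 0.18 for RNF126. Of the 14 genes, 11 lie above 0 and 3 below.

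Of the 11 TRIM genes, 0 passed the threshold in either direction and 2 had an unadjusted p below 0.05 (18.2%). Above 0 lay 8 (72.7%), with a family median of 0.06. Over all genes 16.4% passed, 29.5% had an unadjusted p below 0.05 and 52.5% lay above 0. In the authors' deposited table TRIM2, a ligase of neurofilament light chain, had 0.28 (adjusted p = 0.0874), and TRIM23, which joins a RING to an ARF-like GTPase domain, -0.37 (adjusted p = 0.109). TRIM2 also had the lowest TE of all 97 members in shSCR cells, a log2 TE of -2.29 in the authors' deposited table, with 1.30% of all genes below it. TRIM28, the corepressor of KRAB zinc finger proteins, had the highest in its family, 0.63, with a change of 0.13 in the authors' deposited table (adjusted p = 0.42). The authors' deposited table gave changes of 0.06 and 0.04 for its relatives TRIM24 and TRIM33, and of 0.09 and -0.10 for the antiviral proteins TRIM25 and TRIM5. The muscle ligase TRIM63 had -0.11 in the authors' deposited table (adjusted p = 0.669).

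The cullins varied little, with changes between -0.20 (CUL4B) and 0.08 (CUL1) in the authors' deposited table. Of the 7, 0 had an unadjusted p below 0.05, against 29.5% of all genes. CUL2, the scaffold of the VHL ligase, had the highest log2 TE, 0.20, and CUL5 the lowest, as given above. Among the F-box proteins 0 of 10 passed, and the median was -0.08. An unadjusted p below 0.05 was found for 3 of them (30%, against 29.5% of all genes), all with values below 0. FBXO11 had -0.34 (adjusted p = 0.0921), from the family's highest log2 TE of 0.45, in the authors' deposited table. For FBXO32, known for its part in muscle wasting, the authors' deposited table gave -0.26 (adjusted p = 0.109). FBXW11, a receptor for phosphorylated targets such as β-catenin, had 0.08, and FBXO28, with the family's lowest log2 TE of -1.49, had -0.05 in the authors' deposited table.

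The large HECT and N-degron ligases also gave 0 calls, against 16.4% of all genes. UBE3A, the ligase named for its role with papillomavirus E6, had a change of -0.23 (adjusted p = 0.177) and UBE3C, which acts at the proteasome, -0.03 in the authors' deposited table. Both had low log2 TE in shSCR cells, -1.72 and -1.87 in the authors' deposited table. HERC1 and HERC2 had -0.09 and 0.02, and the U-box ligases UBE4A and UBE4B -0.10 and 0.01 in the authors' deposited table. The 6 UBR genes, several of which read the amino terminus of a protein as a degradation signal, ranged from -0.20 (UBR3) to 0.08 (UBR4) with a median of -0.08. UBR4 had the highest log2 TE of that family in shSCR cells, 0.02 in the authors' deposited table.

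Among the deubiquitinases, both falls lay in the USP family, 2 of its 20 genes (10%), near the 8.17% of all genes that fell. USP16, which removes ubiquitin from histone H2A, went from an already low log2 TE of -1.58 to -2.24 in the authors' deposited table (change -0.67, adjusted p = 0.000364). In shSCR cells 5.05% of all genes had a lower TE than USP16. USP14, which sits on the proteasome and trims chains there, went from 1.42 to 0.97 in the authors' deposited table (change -0.45, adjusted p = 0.00263). It had the second highest TE of the members in shSCR cells, with 96.1% of all genes below it. The falls thus came from opposite ends of the TE range.

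The other deubiquitinases of the proteasome, and PSMD7 as a related subunit, were set beside USP14. UCHL5 had a log2 TE of 0.75 in shSCR and 0.50 in shTINCR cells in the authors' deposited table, and its change of -0.25 did not pass (adjusted p = 0.148). PSMD14, a proteasome subunit outside the rule, fell by 0.31 in the authors' deposited table (adjusted p = 0.0355). On the other side of 0 lay PSMD7, a proteasome subunit listed with PSMD14, at 0.21 in the authors' deposited table (adjusted p = 0.173).

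Of the 20 USP genes 13 lay below 0 and 7 above it (35%, against 52.5% of all genes), and the median was -0.04. In the authors' deposited table USP34, which acts in WNT signalling, had -0.31 (adjusted p = 0.133) and USP1, which acts on FANCD2 in crosslink repair, -0.23 (adjusted p = 0.344). UBE2T, the E2 of that same repair step, had -0.19 in the authors' deposited table (adjusted p = 0.351). Values close to 0 were given in the authors' deposited table for USP9X (-0.0024), USP8 (-0.02), USP5 (0.03), USP7 (-0.06) and USP4 (0.04). USP4 had the highest log2 TE of all 97 members in shSCR cells, 1.46, and USP53 the lowest of its family, -2.23, in the authors' deposited table. Genes of the family thus differed far more in their level of TE than in its change.

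The member with the smallest p and the largest rise belonged to the OTU family. OTUB1, which cuts chains that mark proteins for the proteasome and also blocks UBE2N without cutting, went from a log2 TE of 0.08 to 0.67 in the authors' deposited table (change 0.59, adjusted p = 3.89e-05). OTUD7B had a change of 0.11 and OTUD6B of -0.13 in the authors' deposited table (adjusted p = 0.645 and 0.531).

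RNF and TRIM ligases were then set beside USP deubiquitinases and UBE2 enzymes, as a description with no test, since genes are not replicates. The 26 RNF and TRIM genes had a median log2 change of 0.13 (1.09-fold), 19 of them above 0, and 4 rose and 0 fell. The 20 USP genes had a median of -0.04 (0.974-fold), 7 of them above 0, and 0 rose and 2 fell. The 18 UBE2 genes had a median of 0.02 (1.01-fold), whose sign changed in 2 alternative settings, 9 of them above 0, and 1 rose and 0 fell. The middle of the RNF and TRIM values, from the lower to the upper quartile, ran from -0.05 to 0.31, that of USP from -0.21 to 0.03 and that of UBE2 from -0.13 to 0.12, so the families overlapped widely. Over all genes the quartiles were -0.15 and 0.18, 52.5% lay above 0, 8.23% rose and 8.17% fell. Above 0 lay 73.1% of the RNF and TRIM genes, 35% of the USP and 50% of the UBE2 genes. The median over RNF and TRIM came mostly from RNF (0.21, against 0.06 for TRIM).

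In level, the members had a lower TE than the typical gene of the table. Their median log2 TE in shSCR cells was -0.37, against 0.0078 over all genes, and 71 of 97 lay below the median of all genes. In shTINCR cells the medians were -0.37 and 0.0019. The median in shSCR cells was -0.59 over the 19 members with a named pseudogene and -0.33 over the 78 without. TE is a ratio of read signals. How far differences in its level between genes come from the way reads were assigned and counted was not tested. By family, 15 of 20 USP, 12 of 18 UBE2, 12 of 15 RNF, 7 of 11 TRIM, 5 of 7 cullin and 8 of 10 F-box genes lay below the median of all genes in shSCR cells. The range of log2 TE was widest in TRIM, USP and UBE2. Within UBE2 the highest and lowest values were those of UBE2B (1.35) and UBE2H (-2.09) in the authors' deposited table. Both are conjugating enzymes, and neither had a change past the threshold, with -0.04 and -0.21 in the authors' deposited table.

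**Figure D3:**
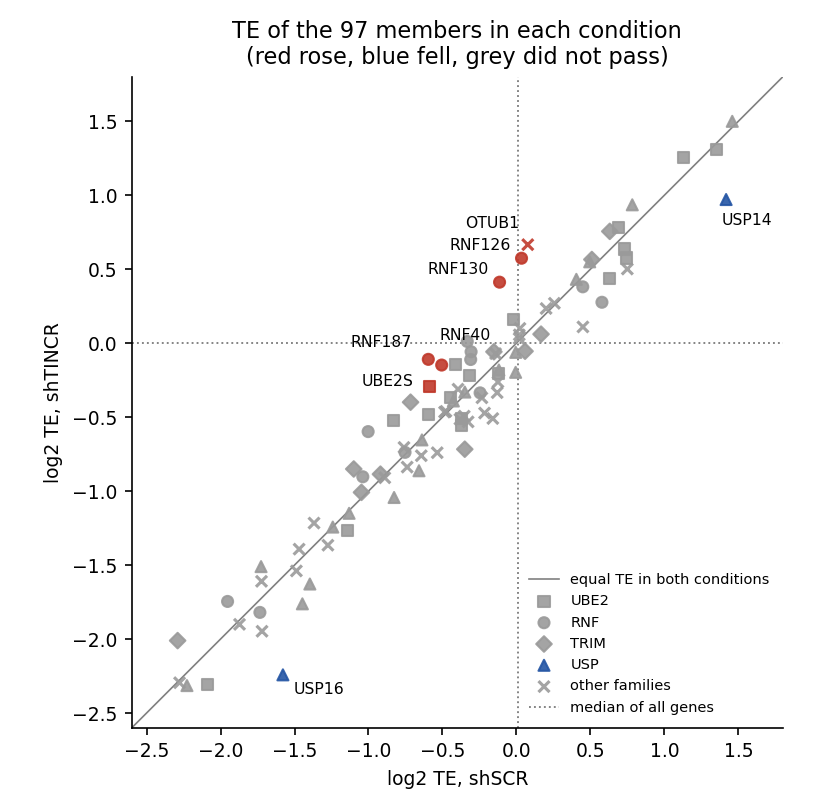
Log2 TE of the 97 members in shSCR (horizontal axis) and shTINCR cells (vertical axis), with 1 symbol shape per family. Red points rose, blue points fell and grey points did not pass; the solid line marks equal TE and the dotted lines the medians of all genes. Most points lie to the left of the vertical dotted line (71 of 97), and USP14 and USP16 lie below the solid line at its opposite ends.

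The starts of the mRNAs were examined because many mRNAs of the protein synthesis machinery begin with a C and a run of C and T bases, the 5′ TOP motif, through which mTORC1 controls their translation. RefSeq start windows (GRCh38.p14) were found for 78 of the 97 members and 3735 of all 4616 genes. A start was counted when its first base was C and the next 4 were each C or T, read on the strand of the gene, and a gene when any of its RefSeq starts was. This held for 8.81% of all genes, for 24.2% of the 310 matched genes that fell and for 5.46% of the 293 that rose. It held for 5 of 78 members (6.41%), none of which was called: RNF7, TRIM2, UBE4B, CUL4B and UCHL5. The starts used in WM902B cells were not measured here.

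The windows below show the 8 called members from 10 bases before to 20 bases after each RefSeq start, 5′ to 3′, with the first 5 transcribed bases in capitals, so that the absence of the motif can be read. They lie at chr11:63986428-63986457 on the plus strand (OTUB1), chr19:663195-663224, minus (RNF126), chr5:180071740-180071769, minus (RNF130), chr1:228487372-228487401, plus (RNF187), chr16:30761602-30761631 and chr16:30762312-30762341, plus (RNF40, starts 1 and 2), chr19:55407769-55407798, minus (UBE2S), chr18:158547-158576, plus (USP14) and chr21:29024658-29024687, plus (USP16).
OTUB1: agcggtcggtAGTGCggcgctgtttaaaga
RNF126: gtgcgtgagcGTGCGcgggcgcgtcggccg
RNF130: cccgccccgcCTCTAggcgccggccccgga
RNF187: cgtccccggcGTTGGcgtcttcgtcctgtt
RNF40, start 1: ctgagtccgcACACTcgcacgcgtccgcgc
RNF40, start 2: gacgtccggtGAAATccaagatggcggcgc
UBE2S: gcgcgcggccGGCTCagtgctgccgggcac
USP14: tggccggtttGAATGagactcgtcgcaccg
USP16: tccaggggtcACTCTggcttcgactccgtc
RNF130 begins with C and then T, C and T before an A, which is 1 base short of the motif as searched. The other 8 windows begin with A or G.

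The share of G and C in the 50 bases after the start was 84% in RNF126 and RNF130, 76% in UBE2S, 66% in RNF187 and 60% in OTUB1. It was 65% in RNF40 (mean of its starts), 72% in USP14 and 58% in USP16. The median was 68% over the 78 members and 66% over all matched genes. Across the 78 members, this share and the log2 change of TE had a Pearson r of 0.26 and a Spearman rho of 0.29, and across the 3735 genes 0.18 and 0.17. These are weak relations across genes, which share their libraries and are not independent replicates.

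**Figure D4:**
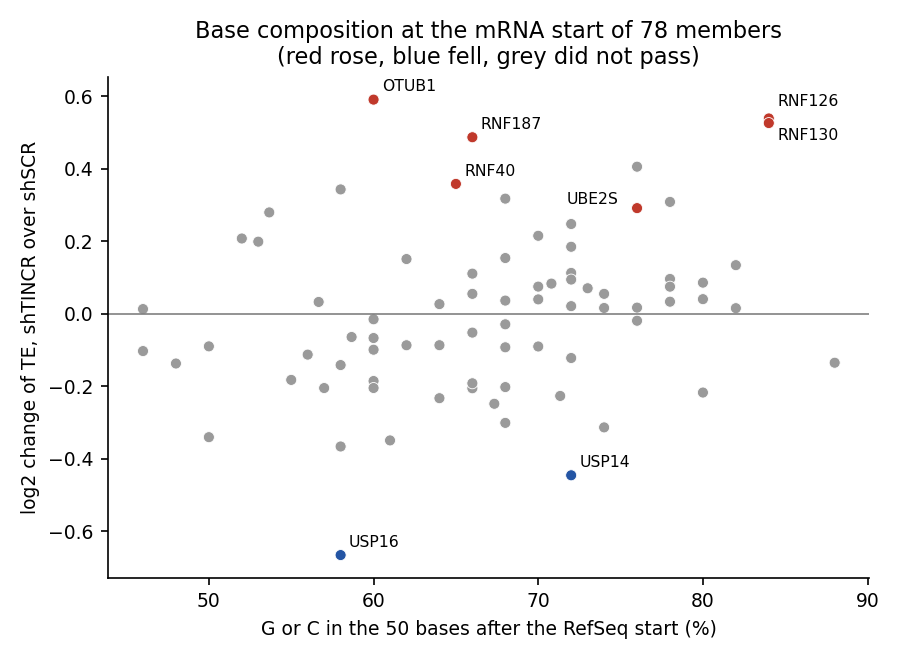
Log2 change of TE against the percent of G and C in the 50 bases after the RefSeq start, for the 78 members with a start window (mean over starts where a gene has several). Red points rose, blue points fell and grey points did not pass. RNF126 and RNF130 lie at 84%, OTUB1 at 60% and USP16 at 58%, and the Pearson r is 0.26.

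The rest of the ubiquitin system was described from 10 lists by role, without the members of the 12 families. Their 149 measured genes had a median log2 change of -0.02, and 9 rose and 13 fell. The 22 called were 14.8% of the 149, near the 16.4% called over all genes. The ubiquitin-like and ubiquitin genes numbered 10, of which 2 fell and 1 rose (30% called, against 16.4% of all genes). Among those that fell was RPS27A, which encodes ubiquitin fused to a ribosomal protein, at -0.34 in the authors' deposited table (adjusted p = 0.00138). For UBB, which encodes a chain of ubiquitins, the authors' deposited table gave -0.24 (adjusted p = 0.0653). The gene that rose was URM1, a modifier that also carries sulfur to tRNA, at 0.45 in the authors' deposited table (adjusted p = 0.0246).

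Of 9 E1 enzymes and subunits 1 fell, UBA6, the second E1 for ubiquitin, at -0.43 in the authors' deposited table (adjusted p = 0.0201). UBA1, the main one, had -0.05 in the authors' deposited table (adjusted p = 0.814). Among 13 genes of the NEDD8 cycle and COP9 signalosome CAND1, which exchanges the receptors of cullins, fell by 0.30 in the authors' deposited table (adjusted p = 0.00589), and 0 rose. Among 25 cullin adaptors 1 rose and 0 fell, namely IVNS1ABP, a kelch protein, at 0.82 in the authors' deposited table (adjusted p = 0.00027). Of 9 further genes of the anaphase-promoting complex and its activators, 1 fell and 0 rose. The authors' deposited table gave -0.60 for the subunit CDC16, which fell (adjusted p = 0.000649), and -0.04 and 0.37 for the activators CDC20 and FZR1 (adjusted p = 0.847 and 0.13). Called genes made up 11.1% of the E1 list and 7.69% of the NEDD8 and COP9 list. They made up 4% of the cullin adaptors and 11.1% of the anaphase-promoting complex list, against 16.4% of all genes.

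Of 36 other RING and U-box ligases 5 rose and 3 fell (22.2% called, against 16.4% of all genes). Their median was 0.07, and 20 of them lay above 0 (55.6%, against 52.5% of all genes). In the authors' deposited table PDZRN3 rose by 0.58 (adjusted p = 0.0149), and RBBP6 fell by 0.51 (adjusted p = 0.0232) and the zinc finger protein ZFAND6 by 0.43 (adjusted p = 0.0351). Of 9 HECT ligases outside the rule 0 rose and 0 fell, and the single gene measured on the list of RING-between-RING ligases did not pass. Of 9 other deubiquitinases 3 fell and 0 rose (33.3% called, against 16.4% of all genes). Those were PSMD14 and the translation initiation subunits EIF3F and EIF3H, which are on this list for their related domain. The authors' deposited table gave -0.67 for EIF3F (adjusted p = 1.91e-10) and -0.60 for EIF3H (adjusted p = 9.79e-10). Among 31 genes of p97 and the ubiquitin receptors 2 rose and 2 fell (12.9% called, against 16.4% of all genes). In the authors' deposited table the p97 cofactor NPLOC4 rose by 0.30 (adjusted p = 0.0461). On the other side, the authors' deposited table shows that UFD1, the partner of NPLOC4, fell by 0.33 (adjusted p = 0.0255) and NEMF of ribosome quality control by 0.47 (adjusted p = 0.0037).

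**Figure D5:**
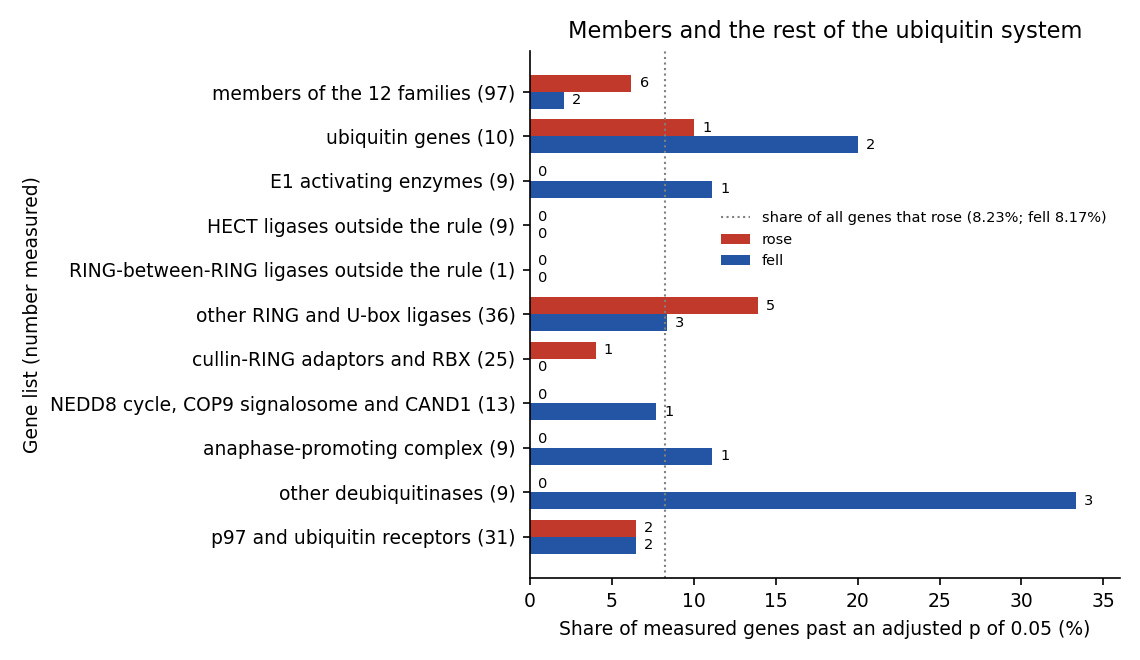
Share of measured genes past an adjusted p of 0.05 that rose (red) or fell (blue), for the 97 members and 10 lists of the rest of the ubiquitin system, with the number measured in brackets and the number of genes at each bar. The dotted line is the share of all genes that rose (8.23%). The members lie to the left of it in both directions, with 6 that rose and 2 that fell.

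The calls among members depended on the rule used. The authors' table holds 2 versions of the estimate and takes the larger p-value. The first version alone called 11 of 97 members, adding RNF181, TRIM2 and UBE2G2, against 17.9% of all genes. The second called 9, adding RNF181, against 20.3% of all genes. At an adjusted p below 0.01 the 5 members OTUB1, RNF130, RNF187, USP14 and USP16 passed, against 7.82% of all genes, and below 0.1 there were 14, against 22.0%. Without the least precise 25% of genes, 7 of 77 members were called and RNF126 was lost, against 18.6% of the genes kept. Without the 10% of genes with the lowest TE, which takes out USP16, 7 of 79 were called, against 16.6% of the genes kept. In each of these 6 settings the share of members called was below that of all genes tested.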

How the data were processed

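The deposited file is 1 table of the authors' comparison, shTINCR over shSCR. Per the file headers, it holds log2 columns with the TE under each hairpin and its change (2 versions, then a final one). Per the file headers it also holds a p-value column for each version, a final p-value and an adjusted one. As tested on the values, the final p is the maximum of both versions in 4616 of 4616 rows, and the adjusted p is a Benjamini-Hochberg correction over the whole table. The tool behind these columns, the treatment of multi-mapping reads and any filter on low counts were not stated (not given in the sources used here). Software named without roles, per the submitters' processing notes, was DESeq 1.10.1, HTSeq 0.5.3p9, SAMtools 0.1.18, Bowtie2 2.1.0, TopHat2 2.0.8 and CASAVA 1.9, with genome hg19. Columns of single libraries numbered 0, so no fit over libraries was run and depth is unknown.

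Folds are 2 to the power of the log2 change. Counts, medians and quartiles were computed in Python 3.11.15 (pandas 2.3.3, numpy 2.4.6, scipy 1.17.1, matplotlib 3.10.9). The counting of called genes and the implied standard errors were tested on simulated data, and the medians and quartiles were not. Each p belongs to 1 gene in the authors' comparison, and p-values measure the spread as their method estimated it from 2 replicates. All 97 symbols were current in RefSeq GRCh38.p14, of which 19 have named pseudogenes and 6 a small nucleolar RNA gene inside. The members and lists were chosen with earlier results of these data known. Genes were named by rule: members past the threshold or with an adjusted p up to 0.1, the 4 largest changes outside it, the highest and lowest TE of each family, all members of small families and, from each list, up to 4 genes past the threshold. This named 37 members; partners and further examples were named after their values were seen, and some genes the rule names are not reported here. The rule's pairs of near-identical proteins were not analysed here.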

Additional observations from a re-analysis of the deposited data

How the results depend on the processing

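No paired analysis was possible because the table pools the replicates, and for the same reason no replicate could be left out and no count model run. Of the called members, OTUB1, RNF130, RNF187, RNF40 and UBE2S kept their call in both versions of the estimate and under the filters on precision and low TE, as did USP14. The count of 8 members past the threshold became 5 at an adjusted p below 0.01 (3 that rose) and 14 below 0.1 (11 that rose). Without the 10% of genes with the lowest TE, 1 member fell in place of 2, because USP16 is among the genes taken out. The median over all members lay close to 0 and changed sign when centred on the median of all genes (-0.0030), without members with a named pseudogene (-0.011) and without members that act on another modifier or lack ubiquitin activity (-0.0024), the last an alternative chosen after seeing the data. The UBE2 median also changed sign in that last setting (-0.042) and without the least precise 25% of genes (-0.0028), and it was 0.075 without members with a named pseudogene and also 0.075 without the 10% of genes with the lowest TE. The RNF and TRIM median rose to 0.20 without the least precise 25%, and the USP median kept its sign in every setting run. Among the 37 members named by rule, the only ones followed singly across settings, HERC2 (-0.00054) and UBE4B (-0.0030) changed sign on centring. USP6NL, a planned exclusion, had 0 rows.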
